A study of Danio rerio with 6 samples.

Results

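The genes described here encode zona pellucida (ZP) proteins, the building blocks of the coat around the egg. They are the 15 of 14781 gene symbols in the count table that begin with zp2, zp3, zpcx or zpld: zp2.1, zp2.2, zp2.3, zp2.5, zp2.6, zp2l1, zp2l2, zp3, zp3.1, zp3.2, zp3a.1, zp3a.2, zp3b, zpcx and zpld1a. The choice was made from their high levels in some tumours of the knockout group, so their differences between the groups are given as a description, without a test. RefSeq lists 22 zebrafish symbols under the same rule, and the other 7 were not in the count table under those symbols. All 15 matched a RefSeq symbol of assembly GRCz12tu, a build other than that of the counts, used for names and gene order only.

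The libraries came from zebrafish tumours that the labels place in the peripheral sympathetic nervous system, where neuroblastoma arises. All fish overexpressed the oncogene MYCN. In the knockout group (3 libraries) they also carried a gas7 knockout, and in the MYCN-only group (3 libraries) they did not. The labels give no strain, age, sex, promoter or allele, do not say which gas7 copy was targeted, and do not state that each library is a separate fish, so the spread between libraries may be partly technical.

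Vertebrate egg coats are meshes of secreted proteins that share a ZP domain, through which they polymerize. In the mouse, ZP2 and ZP3 are made by the growing oocyte, and ZP2 takes part in sperm binding. Zebrafish have many relatives of both, made in the ovary, and their egg coat becomes the chorion of the embryo.

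Total counts ran from 20310441 to 33305326 in the knockout group and from 12054844 to 16624086 in the MYCN-only group, so every knockout library was deeper than every MYCN-only library. The sympathetic markers th and dbh, which encode the catecholamine enzymes tyrosine hydroxylase and dopamine beta-hydroxylase, were read in all 6 libraries, at 1664 to 4868 and 1402 to 5152 CPM (counts scaled for library size and composition). They have the highest mean CPM in a list of 13 sympathetic genes described below. Both had a higher mean in knockout, whereas 8 of the 12 tested genes of that list had a lower mean. Knockout libraries 2 and 3 stood apart from the other 4 in the egg coat genes, and each result is therefore given library by library.

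Egg coat transcripts were abundant in knockout libraries 2 and 3 and rare in the other 4. The 15 genes together took 1.11% of the counts of knockout library 2 (95% Wilson interval 1.102% to 1.110%) and 1.26% of those of knockout library 3 (1.257% to 1.265%). In knockout library 1 they took 0.00488% (0.00459% to 0.00520%), or 992 counts. In MYCN-only libraries 1, 2 and 3 they took 0.00193%, 0.00146% and 0.00212%, or 295, 176 and 352 counts. These intervals cover counting error only. Summed CPM does not depend on how reads were divided among the 15 genes. It stood at 51.5, 10412 and 13679 across knockout libraries 1 to 3, against 17.7, 15.6 and 20.3 in the MYCN-only libraries. Knockout libraries 2 and 3 were 513-fold and 673-fold above the highest MYCN-only library, and knockout library 1 was 2.54-fold above it. In bulk tumour RNA, fewer cells of a type and less RNA per cell cannot be told apart.

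**Figure D1:**
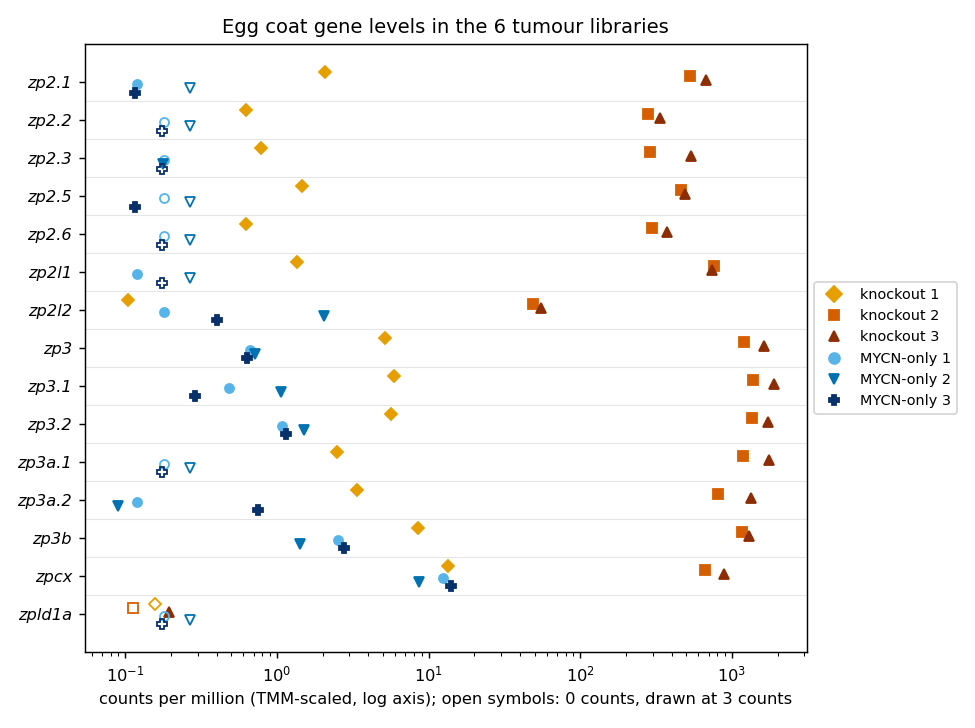
Level of each egg coat gene (rows) in each of the 6 libraries (symbols) in CPM on a log axis, with open symbols for libraries at 0 counts, drawn at the level of 3 counts. Knockout libraries 2 and 3 lie to the right of the other 4 for 14 genes, zpcx sits near 10 CPM in the remaining libraries, and zpld1a is near the level of 3 counts throughout.

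In 14 of the 15 genes, knockout libraries 2 and 3 both lay above all other libraries. The exception was zpld1a. The share of all genes with this arrangement is not given here, so this count is a description only. The same 14 passed the low-count filter, which asks for about 10 counts in at least 3 libraries. A gene meets this filter through the libraries where it is high, so the number that passed says nothing about the group. Of the 14, 12 had all 3 knockout libraries above all MYCN-only libraries, a state found for 11.6% of the 12821 genes tested. A gene near 0 counts in MYCN-only passes the filter only if knockout library 1 also holds counts. The filter thus partly fixed this state, here and in the gene lists below, and the 12 are not weighed against that share. edgeR's quasi-likelihood test over the whole table called 0 of the 14 and 0% of all genes at an adjusted p under 0.05. Over all genes there were 2447 at an unadjusted p under 0.05, and DESeq2 called 1360. DESeq2 called 14 of 14, against 9.8% of all genes, and edgeR without knockout library 1 called 14 of 14, against 14.7%. In a fit added once the data were seen, with knockout library 1 alone against MYCN-only, edgeR called 0 of the 12 that could be tested, against 0.0682% of all genes. Since the genes were chosen from this contrast, these counts are printed as a description.

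The zp2-type genes form a neighbouring set. In RefSeq gene order zp2.2 and zp2.3 stand next to each other, as do zp2.6, zp2.1 and zp2.5, with 1 other coding gene between the runs. zp2.1 was read at 2.08, 528 and 677 CPM across knockout libraries 1 to 3, against 0.120, 0 and 0.115 CPM across MYCN-only libraries 1 to 3. zp2.5 stood at 1.45, 464 and 491 CPM across the knockout libraries, against 0, 0 and 0.115 CPM across the MYCN-only libraries. zp2.3 stood at 0.779, 289 and 533 CPM against 0, 0.178 and 0 CPM. In all 3 genes the knockout libraries did not overlap the MYCN-only libraries, but library 1 lay far closer to MYCN-only than to libraries 2 and 3.

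zp2.2 and zp2.6 had 0 counts in all MYCN-only libraries. A count of 0 allows up to 0.180, 0.267 and 0.173 CPM across MYCN-only libraries 1 to 3, taking 3 counts per library as the limit. zp2.2 stood at 0.623, 279 and 337 CPM across knockout libraries 1 to 3, and zp2.6 at 0.623, 295 and 370 CPM. Against the highest of these limits, knockout library 2 was at least 1045-fold higher for zp2.2 and at least 1108-fold higher for zp2.6. In knockout library 1 both genes rested on 12 counts, and the bound there was at least 2.34-fold.

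The zp2-like genes zp2l1 and zp2l2 lie apart from that set and from each other. zp2l1 was read at 1.35, 764 and 734 CPM across the knockout libraries, against 0.120, 0 and 0 CPM across the MYCN-only libraries. It was the only egg coat gene of the 15 that was not higher in knockout library 3 than in library 2. zp2l2 stood at 0.104, 48.8 and 54.8 CPM across the knockout libraries, against 0.180, 2.04 and 0.404 CPM across MYCN-only libraries 1 to 3. Here knockout library 1, with 2 counts, was lowest of all, and MYCN-only library 2, with 23 counts, was the highest of the 4 low libraries. The groups overlapped, and the fitted log2 fold change was 5.36 (SE 1.90).

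Among the zp3-type genes, zp3.1, zp3 and zp3.2 are neighbours in that order. zp3.1 was read at 5.87, 1368 and 1889 CPM across the knockout libraries, against 0.481, 1.07 and 0.289 CPM across the MYCN-only libraries. zp3 stood at 5.14, 1193 and 1635 CPM against 0.661, 0.711 and 0.635 CPM, and zp3.2 at 5.61, 1363 and 1716 CPM against 1.08, 1.51 and 1.15 CPM. The genes of this set had counts in every library, at 5 to 20 each in the MYCN-only libraries. Whether counts this low came from transcripts of those tumours was not tested. Knockout library 1 lay 3.71-fold (zp3.2) to 7.23-fold (zp3) above the highest MYCN-only library.

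The neighbours zp3a.1 and zp3a.2 differed at the low end. zp3a.1 was read at 2.49, 1181 and 1750 CPM across the knockout libraries and had 0 counts in all MYCN-only libraries, so knockout library 2 was at least 4429-fold and knockout library 1 at least 9.35-fold above the limit of 3 counts. zp3a.2 stood at 3.37, 808 and 1324 CPM across the knockout libraries, against 0.120, 0.0889 and 0.750 CPM across the MYCN-only libraries. MYCN-only library 3 held 13 of the 16 MYCN-only counts of zp3a.2.

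zp3b stood at 8.51, 1162 and 1289 CPM across knockout libraries 1 to 3, against 2.52, 1.42 and 2.77 CPM across the MYCN-only libraries, a mean of 2.24 ± 0.718 CPM (SD, n = 3). The groups did not overlap, and knockout library 1 was 3.07-fold above the highest MYCN-only library. The fitted log2 fold change was 8.51 (SE 1.80).

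zpcx, a further ZP-domain gene, kept a low level in libraries that held almost no other egg coat transcript. It was read at 12.4, 8.62 and 14.1 CPM across MYCN-only libraries 1 to 3, a mean of 11.7 ± 2.80 CPM (SD, n = 3), on 207, 97 and 244 counts. Knockout library 1, at 13.5 CPM (95% Poisson interval 11.9 to 15.2), lay within that range. Knockout libraries 2 and 3 stood at 668 and 879 CPM, 47.5-fold and 62.4-fold above the highest MYCN-only library. The groups thus overlapped through library 1, and the fitted log2 fold change was 5.47 (SE 1.37). In RefSeq order zpcx lies between pabpc4 and tmem54a. No source used here gives the strand setting of the counting, so zpcx reads and those of any overlapping gene cannot be told apart.

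**Figure D2:**
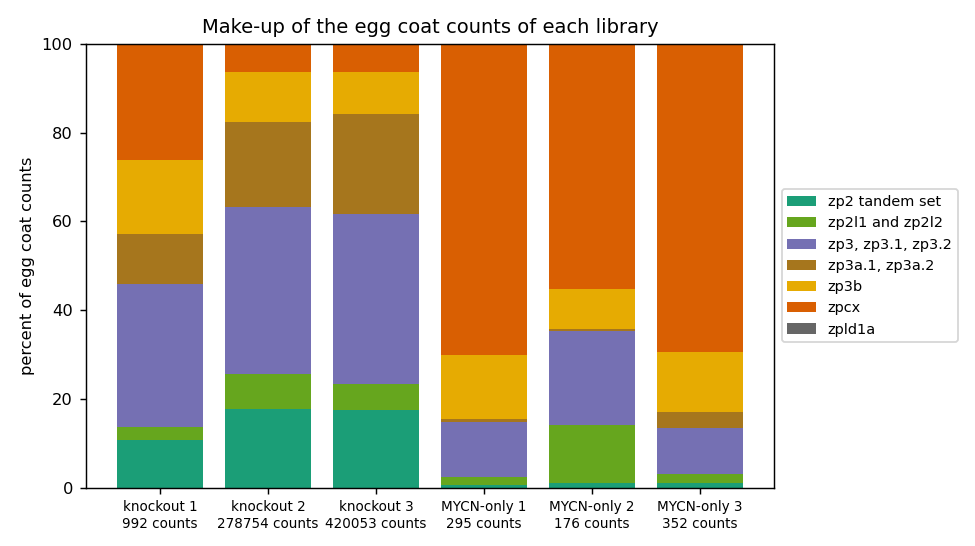
Percent of the egg coat counts of each library (bars, 0 to 100%) that fell on each gene set, with the number of counts under each bar. zpcx makes up 55.1% to 70.2% of the few counts in the MYCN-only libraries, 26.2% in knockout library 1 and 6.42% in libraries 2 and 3 of that group.

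The make-up of the egg coat counts therefore differed between libraries. zpcx made up 70.2%, 55.1% and 69.3% of them in MYCN-only libraries 1, 2 and 3, with 95% Wilson intervals of 64.7% to 75.1%, 47.7% to 62.3% and 64.3% to 73.9%. It made up 26.2% in knockout library 1 (23.6% to 29.0%) and 6.42% in both knockout library 2 and knockout library 3. Without zpcx, the summed level was 38.0, 9744 and 12800 CPM across knockout libraries 1 to 3 and 5.29, 7.02 and 6.23 CPM across the MYCN-only libraries. Knockout library 1 was then 5.41-fold above the highest MYCN-only library, against 2.54-fold with zpcx.

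zpld1a belongs to the rule by its symbol but not by function, since its relatives encode a part of the gelatinous cupula of the inner ear. It had 6 counts in knockout library 3 (0.195 CPM) and 0 in the other 5 libraries. It did not pass the low-count filter, and no difference was detectable at this depth.

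Knockout library 1 held a small fraction of the levels of knockout libraries 2 and 3. Its CPM was 0.170% (zp3a.1) to 1.75% (zpcx) of the mean of those libraries over the 14 genes, with a median of 0.310%, and 12 of the 14 genes lay below 0.5%. The exceptions were zpcx and zp3b, which stood at 0.695% (95% Poisson interval 0.592% to 0.810%). The interval of zp3a.1, 0.125% to 0.225%, lay below those of zp3, zp3.1 and zp3.2, which together ran from 0.295% to 0.442%. The intervals cover counting error in knockout library 1 only. In the MYCN-only libraries the mean level was 1.51% of that in knockout libraries 2 and 3 for zpcx, 1.69% for zp2l2, 0.183% for zp3b and at most 0.0811% for the other 11 genes.

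**Figure D3:**
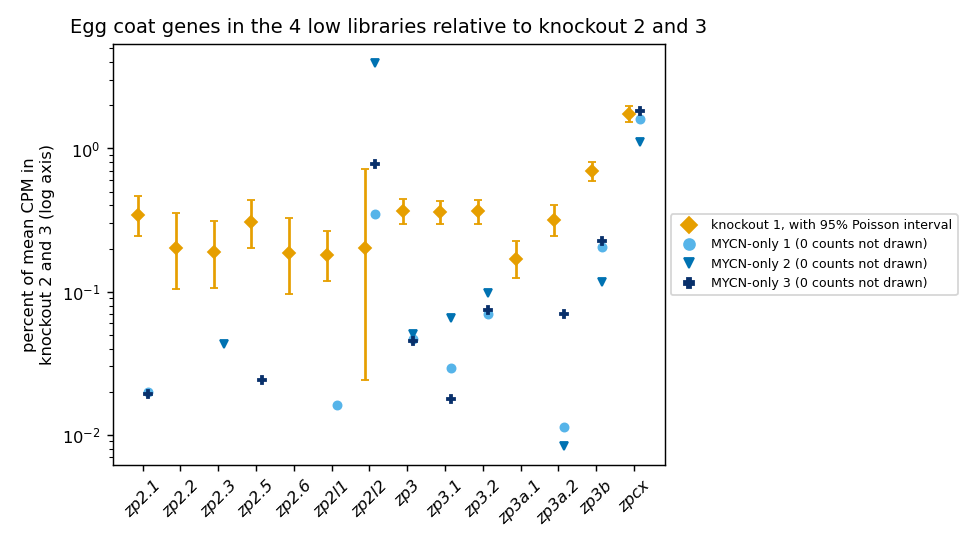
Level of 14 egg coat genes in knockout library 1 (diamonds with 95% Poisson intervals) and in the MYCN-only libraries (blue symbols), each as a percent of the mean CPM of knockout libraries 2 and 3, on a log axis. Knockout library 1 lies above the MYCN-only libraries for 12 genes and among or below them for zpcx and zp2l2.

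The levels of knockout libraries 2 and 3 differed by at most 1.85-fold. Library 3 was higher for 13 of the 14 genes, with ratios from 0.961 (zp2l1) to 1.85 (zp2.3) and a median of 1.27. Over the 11989 tested genes above 1 CPM in knockout library 2, the median ratio was 1.05, with quartiles at 0.814 and 1.30. These are single libraries, so the ratios have no replicate check.

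How reads were divided among similar copies limits the values of single genes. No source used here says how reads that match several copies were counted. Such reads may have been dropped, which lowers all copies of a set, or given to 1 copy or shared, which moves counts between neighbours. The sum over a set is safe from movement between its genes, but not from dropped reads. The zp2 set summed to 5.56, 1855 and 2407 CPM across knockout libraries 1 to 3, against 0.120, 0.178 and 0.231 CPM across the MYCN-only libraries. The zp3, zp3.1 and zp3.2 set summed to 16.6, 3924 and 5240 CPM against 2.22, 3.29 and 2.08 CPM. The zp3a pair summed to 5.87, 1990 and 3074 CPM against 0.120, 0.0889 and 0.750 CPM. In all 3 sets each knockout library lay above each MYCN-only library. This arrangement was found for 11.6% of the 12821 single genes tested, but sums over several chosen genes are not weighed against that share. Knockout library 1 lay 24.1-fold, 5.05-fold and 7.82-fold above the highest MYCN-only library. That highest level rested on 4 counts for the zp2 set (library 3), 37 for the zp3 set (library 2) and 13 for the zp3a pair (library 3). For the zp2 set its Poisson interval ran from 0.0629 to 0.591 CPM, so the 24.1-fold is imprecise.

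Within the knockout group, the shares of the zp3 set moved less between libraries than those of the other sets. zp3, zp3.1 and zp3.2 held 30.4%, 34.9% and 34.7% of the set's counts in knockout library 2 and 31.2%, 36.0% and 32.8% in library 3, and the 320 counts of library 1 split as 30.9%, 35.3% and 33.8%. In the MYCN-only libraries, on 36 or 37 counts each, zp3.2 held more of the set, at 48.6%, 45.9% and 55.6%. In MYCN-only library 3 the 95% Wilson interval of zp3.2 (39.6% to 70.5%) lay above its share in all knockout libraries, and that of zp3.1 (6.08% to 28.7%, around 13.9%) lay below. In the zp2 set, zp2.3 held 15.6% in knockout library 2 (95% Wilson interval 15.2% to 15.9%) and 22.1% in library 3 (21.8% to 22.4%). zp2.5 went the other way, from 25.03% (24.6% to 25.4%) to 20.4% (20.1% to 20.7%), while zp2.1 stayed at 28.5% and 28.1%. zp3a.1 held 59.4% and 56.9% of its pair's counts in knockout libraries 2 and 3 and 42.5% in library 1. There the interval (33.8% to 51.7%, on 113 counts) lay below those of knockout libraries 2 and 3. In MYCN-only libraries 1, 2 and 3 zp3a.1 held 0 of the pair's 2, 1 and 13 counts. RefSeq also lists zp3.2 as an older name of zp3, so the pairing of these symbols with copies may differ between annotations.

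**Figure D4:**
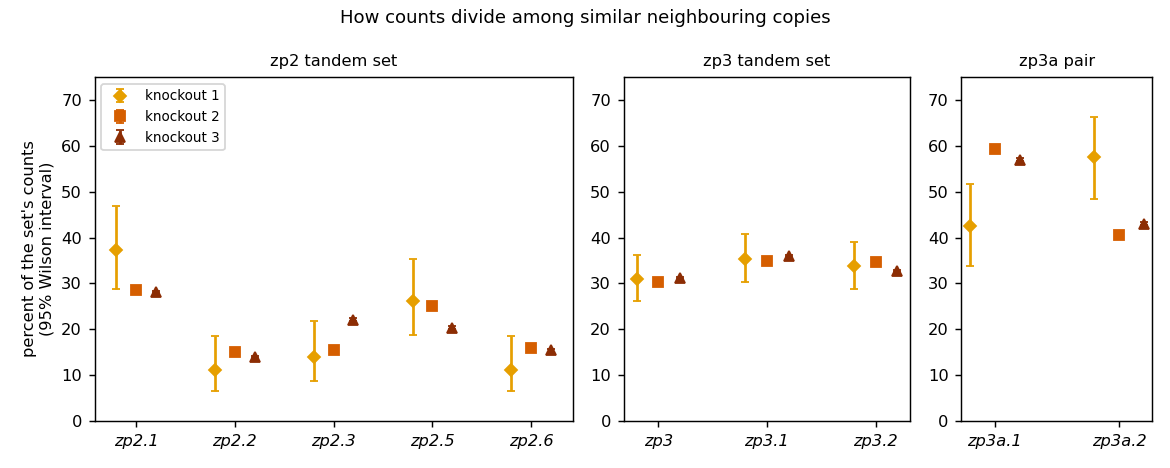
Percent of a set's counts that each copy held in knockout libraries 1, 2 and 3, with 95% Wilson intervals, for the zp2 set, the zp3 set and the zp3a pair. The zp3 copies lie between 30.4% and 36.0% in all 3 libraries, while zp2.3 and zp2.5 differ between libraries 2 and 3 and zp3a.1 holds a lower share of its pair in library 1 than in libraries 2 and 3.

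Other genes of the egg coat and egg surface had the same arrangement of libraries. Of 8 listed, 5 were in the table. The ZP-domain gene zpax1 was read at 11.1, 2203 and 3109 CPM across knockout libraries 1 to 3, against 2.103, 2.93 and 3.75 CPM across the MYCN-only libraries. Its relative zpax4 stood at 5.14, 1695 and 2278 CPM against 3.30, 3.02 and 1.85 CPM, and zpax2 at 0.260, 86.7 and 156 CPM against 0.240, 0.178 and 0.115 CPM. The carbonic anhydrase gene ca15b stood at 2.54, 431 and 594 CPM against 0.120, 0.889 and 0 CPM. All 4 genes that passed the filter had higher means in knockout, 3 with all knockout libraries above all MYCN-only libraries (11.6% of all genes), and edgeR called 0 of them. The summed level of the list in knockout library 1 was 0.361% of that in libraries 2 and 3.

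Most listed oocyte genes that encode no coat protein had the same arrangement. All 17 listed oocyte growth factor and maternal-effect genes were in the table, and 14 passed the filter. Knockout libraries 2 and 3 lay above the other 4 in 15 of the 17, a count given without the share over all genes. The exceptions, named after their values were seen, were h1m, at 0 counts in every library, and piwil2, at 5.09, 62.5 and 82.8 CPM against 94.8, 6.58 and 9.69 CPM. All 14 tested genes had a higher mean in knockout, 4 with all knockout libraries above all MYCN-only libraries (11.6% of all genes), and edgeR called 0. Their log2 fold changes had a median of 6.67 (the same with btg4, at 0 in all MYCN-only libraries, set to its lower bound), against 0.04 over all 12821 genes. buc, which organizes the Balbiani body of the oocyte, stood at 2.91, 612 and 743 CPM across the knockout libraries, against 0.721, 0.356 and 0.173 CPM across the MYCN-only libraries. zar1, which represses translation of maternal RNA, stood at 2.75, 477 and 551 CPM against 3.97, 4.44 and 2.94 CPM, with knockout library 1 below all MYCN-only libraries. Of 8 listed oocyte transcription factors 3 were in the table and 1 passed the filter, lhx8a, with a higher mean in knockout. figla, which in the mouse drives transcription of the zona genes, was read at 0, 9.97 and 8.53 CPM across the knockout libraries, against 0, 0 and 0.115 CPM across the MYCN-only libraries.

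Of 9 listed yolk precursor and receptor genes 7 were in the table, and all 7 passed the filter with a higher mean in knockout. The yolk precursor genes differed from the egg coat genes in how they were spread over knockout libraries 2 and 3. vtg1, which encodes a vitellogenin made mainly by the liver and taken up by the oocyte, stood at 25.6, 692 and 47578 CPM across the knockout libraries, against no more than 2.16 CPM across the MYCN-only libraries. The ratio of library 3 to library 2 was 28.6 to 161 over 6 vitellogenin genes, against 0.961 to 1.85 over the 14 egg coat genes. This is a description of a pair of libraries without replicates. vtg5 was higher in knockout library 1 (1169 CPM) than in library 2 (378 CPM), the reverse of every egg coat gene past the filter.

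**Figure D5:**
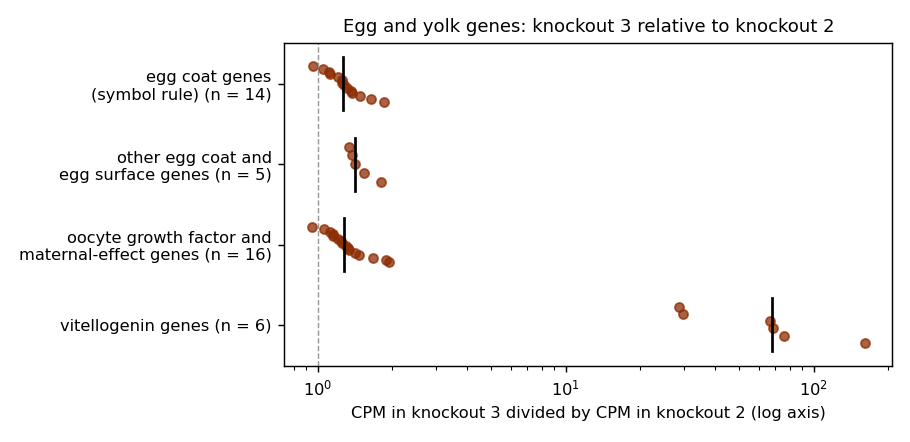
CPM in knockout library 3 divided by CPM in knockout library 2, on a log axis, for single genes (points) with the median of each list (black line) and a dashed line at 1. Egg coat genes, other egg coat and surface genes, and oocyte growth factor and maternal-effect genes lie between 0.95 and 1.94, and the vitellogenin genes lie between 28.6 and 161.

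Markers of the other cell types that the tumours could hold were read beside these values. Of 14 listed genes of ovarian follicle somatic cells, 11 were in the table and 9 passed the filter, 6 with a higher and 3 with a lower mean in knockout (median log2 fold change 0.09). Knockout libraries 2 and 3 lay above the other 4 in 3 of the 11. In this list cyp11a1 stood at 22.5, 168 and 203 CPM across the knockout libraries, against 6.73, 28.4 and 14.3 CPM across the MYCN-only libraries. The steroid enzyme gene cyp17a1 stood at 1.19, 100.1 and 91.8 CPM against 0.901, 0.356 and 2.19 CPM. star, which carries cholesterol into mitochondria and is also an interrenal gene, stood at 2557, 216 and 291 CPM against 756, 1199 and 1100 CPM. Whether the cyp11a1, cyp17a1 and star counts came from follicle cells was not tested. inhbb, the next of the list by mean CPM, stood at 2.02, 1.01 and 1.37 CPM against 3.06, 4.62 and 8.14 CPM. Of 8 listed meiosis genes 6 were in the table and 2 passed the filter, 1 higher and 1 lower. Knockout libraries 2 and 3 lay above the other 4 in 2 of the 6 meiosis genes. Among them sycp1 stood at 3.53, 100.2 and 108 CPM against 2.82, 3.91 and 7.39 CPM. The testis list, all 7 of whose genes were in the table, had 5 of 6 tested genes lower in knockout. Its summed levels were 141, 53.6 and 67.4 CPM across the knockout libraries and 100.1 to 289 CPM across the MYCN-only libraries. Most of that sum was cyp11c1 alone, at 90.8, 33.3 and 48.3 CPM against 78.2, 262 and 188 CPM. The sum is thus mainly the level of a single gene and is not read as a testis signal. The liver list, with 3 of 11 tested genes higher and 8 lower, summed to 30270, 7268 and 10409 CPM across the knockout libraries and 4241 to 52980 CPM across the MYCN-only libraries, with knockout libraries 2 and 3 inside that range. Knockout libraries 2 and 3 lay above the other 4 in 0 of the 7 testis genes and 0 of the 11 liver genes. Without the share of all genes in this arrangement, these list counts cannot be read against a background. Of the 12 listed ZP-domain and inner ear genes outside the egg coat, 1 was in the table, tectb, at no more than 1.99 CPM in any library. It too was highest in knockout libraries 2 and 3. The part of any other cell type in the egg coat result was not tested.

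The sympathetic list had all 13 of its genes in the table and summed to 13001, 5551 and 7488 CPM across knockout libraries 1 to 3, against 7460, 9386 and 8580 CPM across the MYCN-only libraries. Of its 12 tested genes 4 had a higher and 8 a lower mean in knockout. hand2, next after th and dbh by mean CPM, stood at 700, 304 and 450 CPM against 587, 423 and 622 CPM. slc18a2 followed, at 1215, 185 and 529 CPM against 345, 221 and 272 CPM. In 4 of the 12 all knockout libraries lay below all MYCN-only libraries, and in 0 all lay above. The share of all genes with knockout wholly below is not given here. Knockout library 2 was lowest of the 6 in the summed level, and knockout library 3 lay just above MYCN-only library 1.

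The genes most like the egg coat genes in their pattern were sought among 11318 tested genes with a proper symbol. Placeholder symbols, such as those that begin with si: or zgc:, were left out. The count table holds zpax1, zpax2 and zpax4 under such symbols, so they could not appear among the nearest genes. Likeness was the root mean square distance between log2 CPM profiles over the 6 libraries, each centred on its own mean, to the profile of the summed egg coat counts. The nearest was npm2, at 0.30 log2 units, followed by ccna1 (0.38), lsm14b (0.53), fbxo43 (0.55), mcm3l (0.67), cpeb1b (0.68), acp5a (0.69), buc (0.77), kpna7 (0.80) and elovl6l (0.84), against a median of 4.33 over all genes compared. npm2 was read at 0.727, 142 and 151 CPM across the knockout libraries, against 0.240, 0.0889 and 0.115 CPM across the MYCN-only libraries. ccna1, which encodes a cyclin A, stood at 2.08, 478 and 596 CPM against 1.502, 0.889 and 1.096 CPM. Among the egg coat genes themselves the distance to their sum ran from 0.31 (zp3b) to 2.06 (zp3a.1). Most single members, all but zp3b, zp3.2 and zp3, thus lay farther from the sum than all of these 10 genes did. In the MYCN-only libraries zpcx made up 55.1% to 70.2% of that sum, so there the profile was mainly that of zpcx. For zp3a.1, zp2.2 and zp2.6, at 0 counts in those libraries, the prior count of 2 set the low end. It also weighed on other genes with few counts there, such as npm2 with 4, 1 and 2. Whether npm2 would be nearest with a smaller prior was not tested.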

How the data were processed

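RNA was extracted with Trizol and made into stranded, paired-end total RNA libraries and sequenced on an Illumina HiSeq, per the labels' protocols. Per the submitters' processing notes, the authors used the danRer10 build with TopHat2 2.0.14 and Bowtie2 2.2.6, and Subread with featureCounts 1.4.6. The deposited values are raw counts per gene symbol. Not given in the sources used here are the annotation, the strand setting and the handling of multiply mapped reads.

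Genes were kept by filterByExpr, which left 12821 of 14781, and scaled by TMM. The test over all genes was the quasi-likelihood test of edgeR on genotype alone, with Benjamini-Hochberg adjustment (threshold 0.05). Tools were R 4.3.3, edgeR 4.0.16, DESeq2 1.42.0 and Python 3.11. The fit was run on simulated data with known changes as a check of the code. The limits to be passed applied only to a simulation with less spread than these data. CPM uses TMM-scaled library sizes, and log2 CPM a prior count of 2. Each standard error is the log2 fold change divided by the root of its F statistic. Total counts ran from 12054844 to 33305326. Libraries of a group differed well beyond sampling noise (lowest chi-square of a pair, 67.8 per degree of freedom), so none is a copy of another. Each was treated as a replicate, although this difference cannot show that they came from separate fish.

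The egg coat genes and the gene lists were chosen with earlier results of these data known. The genes named are the egg coat genes, up to 4 members of each list taken by highest mean CPM, and the 10 nearest profiles. List symbols missing from the table were matched through RefSeq synonyms, zpax1, zpax2 and zpax4 among them. Alternatives were DESeq2 size factors, no filter, DESeq2, a replicate block, each library left out and other library sizes. A fit without knockout libraries 2 and 3 was added after seeing the data.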

Additional observations from a re-analysis of the deposited data

How the results depend on the processing

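edgeR called 0 genes over the whole table with TMM, with DESeq2 size factors and with no low-count filter, with 2447 to 2594 genes at an unadjusted p under 0.05. DESeq2 called 1360 (850 higher, 510 lower). Leaving out single libraries gave 0 to 1923 calls: 1923 without knockout library 1, 4 without MYCN-only library 2 and 0 without any of the other 4. Without knockout libraries 2 and 3, a choice made after seeing the data in which the lone library is assumed to vary like the MYCN-only libraries, edgeR called 9 genes (0.0682% of those tested) and 0 of 12 egg coat genes tested. The replicate number as a block gave 8 calls, all higher. The labels do not say whether equal replicate numbers mark a pair. The deviations of same-numbered libraries from their group means correlated at -0.09, -0.15 and 0.19, and not every library correlated best with its own number. Within a group of 3 the deviations cancel, so these correlations depend on one another and cannot exclude a shared batch. The cause of the changes in the number of calls was not tested.

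The fold changes of the 14 egg coat genes were positive in all 136 values from the settings other than that one, a direction that the choice of the genes fixes. Without knockout libraries 2 and 3, 11 of 12 were positive, and zp2l2 turned to -2.93 on the log2 scale, resting on 2 counts in knockout library 1, while zpcx went from 5.47 to 0.21. Summed egg coat CPM moved by at most 1.09-fold under the 3 other library sizes tried. Depth limits the low libraries, where 6 or 7 of the 15 genes had 0 counts in each MYCN-only library.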
